A study of Homo sapiens with 24 samples.

Results

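CDK inhibitors and D-type cyclins act on the same step of the cell cycle, the passage from G1 into S phase. D-type cyclins activate CDK4 and CDK6, which phosphorylate the retinoblastoma protein and so free E2F factors to switch on S phase genes. Inhibitors of the CIP/KIP family bind several cyclin-CDK complexes, whereas inhibitors of the INK4 family bind CDK4 and CDK6 alone. In gliomas this axis is one of the most often altered.

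The 9 genes described were chosen by symbol out of 34229 symbols listed across the study. They are the CIP/KIP inhibitors CDKN1A (p21), CDKN1B (p27) and CDKN1C (p57), the INK4 inhibitors CDKN2C (p18) and CDKN2D (p19), CDKN3, and the D-type cyclins CCND1, CCND2 and CCND3. CDKN3 carries the name of an inhibitor but encodes a phosphatase that removes the activating phosphate from CDK2 and CDK1. All 9 genes were listed in the 4 LN18 groups, and 8 in the 4 1321N1 groups, where CCND2 was not listed. The filter on low values (a mean of at least 1 RPKM, reads scaled for gene length and library size, in the libraries compared) passed 7 of the 9 genes. CDKN1C and CCND2 did not pass it in any comparison, so they are given as levels only.

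RNA was sequenced from 2 established human glioma cell lines, LN18 (grade IV) and 1321N1 (grade II), each grown as 1 line, 24 h after treatment, with 3 libraries per group, from 3 independent tests per treatment by the sample labels, and 24 in all. LN18 cells received epigallocatechin gallate (EGCG, a green tea catechin) at 50 µg/ml with hydroxychavicol (HC, a phenol of betel leaf) at 10 µg/ml (LN18 EGCG+HC), HC at 10 µg/ml alone (LN18 HC), EGCG at 50 µg/ml alone (LN18 EGCG), or neither (LN18 control). The 1321N1 groups received the same agents, with HC at 20 µg/ml (1321N1 EGCG+HC, HC, EGCG and control). Per the study's methods the lines were also cultured with different shares of serum, lower for LN18, so cell line and serum cannot be told apart in any comparison between the lines. HC stocks were made in ethanol, and vehicle controls received ethanol, per the study's methods. Since the HC dose differed, cell line and HC dose cannot be told apart in any comparison of HC or EGCG+HC responses between the lines.

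The libraries held about 13640000 to 32300000 counted reads where the steps between low values allowed an estimate. The smallest near-best depth was taken, and larger depths scored better in some libraries. At the depths taken, the genes ranged from about 3 reads (CDKN1C) to about 8163 reads (CCND1) per library. In 1321N1 EGCG replicates 2 and 3 the low values were not near whole reads, and 263 genes above 1 RPKM in replicate 1 were at 0 in both, none of them among the 9 genes. Mitochondrial transcripts made up 6.32% to 11.4% of RPKM in the group means. Of 14 glial and neural stem markers, 4 or 5 reached 1 RPKM in each group (VIM and CD44 highest), while S100B, AQP4, ALDH1L1, SOX2 and OLIG2 were under 0.1 RPKM or not listed in all 8 groups. Summed blood and neuron markers stayed between 0.363 and 9.25 RPKM. Epithelial markers summed to 13.7 to 145 RPKM, highest in LN18 through KRT18 and KRT8, and fibroblast markers to 27.2 to 433 RPKM, highest in 1321N1 control through COL1A1 and COL1A2, and their part in the results was not tested.

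The promoters of 4 members are shown because their RNAs changed with EGCG+HC: CDKN1A and CDKN1B were higher in both lines, while CDKN3 was lower in both and CDKN2C in 1321N1. Sequences are RefSeq promoters of GRCh38.p14, from 200 bases before to 20 bases after the start, 5′ to 3′ on the gene's strand. Capitals mark matches on either strand to short motifs. The GC box was searched as GGGCGG. The CCAAT box was searched by the letters of its name. The TATA box was searched as TATAAA. The cell cycle element known as CHR was searched as TTTGAA. The core of the cyclic AMP response element was searched as TGACG. The E2F core was searched as TTCCCGC and, in another known form of the site, as TTGGCGC. CDKN1A spans chr6:36678514-36678733 and CDKN1B chr12:12717168-12717387, CDKN2C (the second of its 3 listed starts) chr1:50968506-50968725 and CDKN3 chr14:54396807-54397026, all on the plus strand.
CDKN1A: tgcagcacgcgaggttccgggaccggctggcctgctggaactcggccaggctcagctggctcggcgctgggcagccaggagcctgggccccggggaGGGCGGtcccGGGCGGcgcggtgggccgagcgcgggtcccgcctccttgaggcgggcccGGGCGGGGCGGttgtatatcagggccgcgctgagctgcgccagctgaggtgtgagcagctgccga
CDKN1B: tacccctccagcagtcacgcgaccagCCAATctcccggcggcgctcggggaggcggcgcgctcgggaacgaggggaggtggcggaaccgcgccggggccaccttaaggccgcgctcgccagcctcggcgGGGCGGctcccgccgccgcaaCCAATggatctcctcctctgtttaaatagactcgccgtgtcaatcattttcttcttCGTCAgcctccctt
CDKN2C: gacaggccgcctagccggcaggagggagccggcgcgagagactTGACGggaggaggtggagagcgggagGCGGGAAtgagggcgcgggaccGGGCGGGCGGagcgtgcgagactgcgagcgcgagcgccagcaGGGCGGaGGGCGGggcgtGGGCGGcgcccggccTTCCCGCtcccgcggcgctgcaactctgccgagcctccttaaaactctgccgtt
CDKN3: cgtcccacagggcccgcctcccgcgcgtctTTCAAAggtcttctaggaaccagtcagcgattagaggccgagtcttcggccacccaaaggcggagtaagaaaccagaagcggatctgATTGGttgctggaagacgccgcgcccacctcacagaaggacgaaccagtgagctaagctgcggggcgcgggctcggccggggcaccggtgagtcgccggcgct

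With positions counted in bases from the start to the first base of the match, CDKN1A held 4 GC boxes at -104, -94, -45 and -40, the last pair overlapping by 1 base. CDKN1B held a GC box at -71 and CCAAT boxes at -174 and -50, with a cyclic AMP core at 6. Another CCAAT box of CDKN1B, at 30, lies beyond the letters shown. The CDKN2C start shown held E2F cores at -131 and -34 among 6 GC boxes, of which 1 lies beyond the letters shown and the pair at -109 and -105 overlap, with a cyclic AMP core at -157. CDKN3 had no GC box but a CHR element at -170 and a CCAAT box at -83, element types known from genes of late cell cycle phases. Another CCAAT box of CDKN3, at -208, lies before the letters shown. A member was counted if any of its listed starts held the motif, and CDKN2C and CCND3 had several. The shares of all promoters are per start, so member counts and shares are not like for like. Over the whole 300-base window, the GC box was in 5 of the 6 members with a RefSeq promoter and in 45.0% of all 35116 promoters. The CCAAT box of CDKN2C was at a start not shown. The CCAAT box was in 5 of 6 members and 34.6% of promoters, the CHR element in 1 of 6 and 15.2%, the cyclic AMP core in 2 of 6 and 24.6%, and the E2F core in 1 of 6 and 9.23%. No member held TATAAA, the only form of the TATA box searched, which was in 11.5% of promoters. CDKN1C, CCND1 and CCND2 had no entry.

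**Figure D1:**
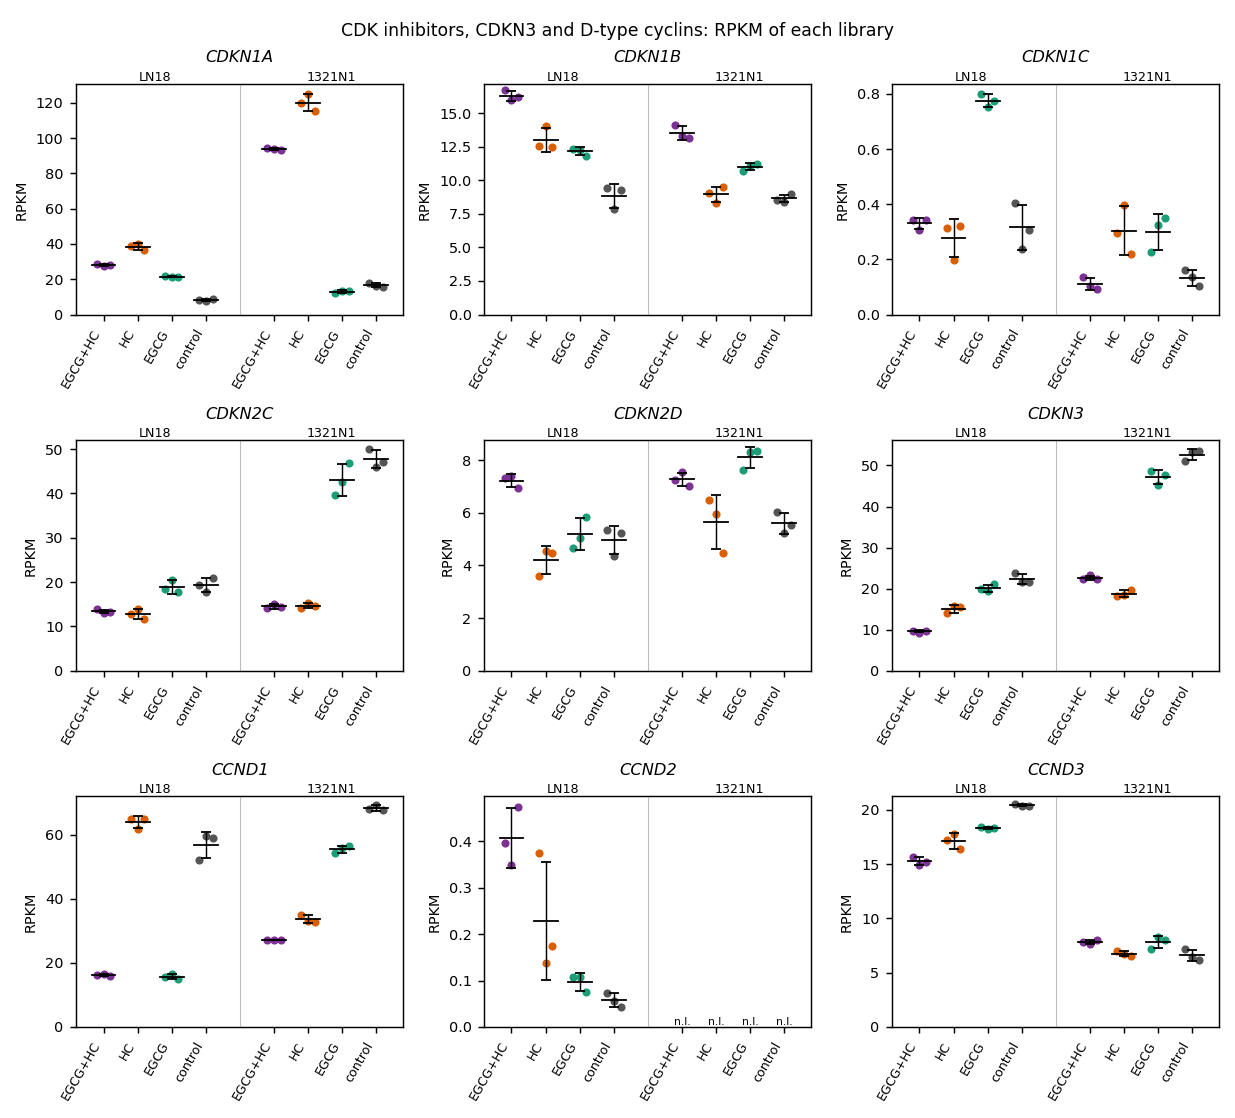
RPKM of the 9 genes in each of the 24 libraries (points), with the group mean and SD (black lines), by treatment in LN18 and 1321N1. CDKN1A was highest in 1321N1 HC (115 to 125 RPKM), CCND1 was lowest in LN18 EGCG and EGCG+HC (15.0 to 16.5 RPKM), and CCND2 was not listed (n.l.) in 1321N1.

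In untreated cells the 2 lines differed in 4 of the 7 genes tested, where 42.6% of all genes tested differed (limma on log2(RPKM + 1)). A gene was called, here and throughout, where its Benjamini-Hochberg adjusted p was 0.05 or less and its change reached 1.5-fold, folds being of RPKM + 1. CCND3 was higher in LN18, at 20.5, 20.4 and 20.4 RPKM in LN18 control against 7.16, 6.48 and 6.15 RPKM in 1321N1 control (log2 difference 1.499, SE 0.05, adjusted p = 2.97e-07). CDKN2C was lower in LN18 (log2 difference -1.265, SE 0.06, adjusted p = 1.55e-06), as were CDKN3 (-1.20, SE 0.05, adjusted p = 4.17e-07) and CDKN1A (-0.90, SE 0.06, adjusted p = 9.4e-06). CCND1, the main D-type cyclin of both lines, averaged 56.9 ± 4.14 RPKM in LN18 control and 68.4 ± 0.808 RPKM in 1321N1 control (SD, n = 3 each), under the fold limit. CDKN1B stood at 8.84 ± 0.880 RPKM in LN18 control and 8.64 ± 0.291 RPKM in 1321N1 control, with overlapping libraries (log2 difference 0.03, 95% interval -0.14 to 0.19).

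Against control, EGCG+HC changed 4 of the 7 genes in LN18 (46.3% of all genes tested were called) and 5 of 7 in 1321N1 (41.1%). HC alone changed 1 of 7 in LN18 (11.7%) and 4 of 7 in 1321N1 (36.6%). EGCG alone changed 2 of 7 in LN18 (18.8%) and none in 1321N1 (4.97%). In 1321N1, 6 of the 7 genes had an adjusted p of at most 0.05 by limma with changes under 1.5-fold. By adjusted p alone, 5315 of all 13255 genes passed there. CDKN1A rose in 5 of these 6 comparisons and CCND1 fell in 4. The 3 comparisons of a line share their control libraries, and nothing particular to the 7 genes is read from these counts. The LN18 HC count became 2, with CDKN2C at -0.62 or -0.61, without control replicate 2 or HC replicate 2.

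**Figure D2:**
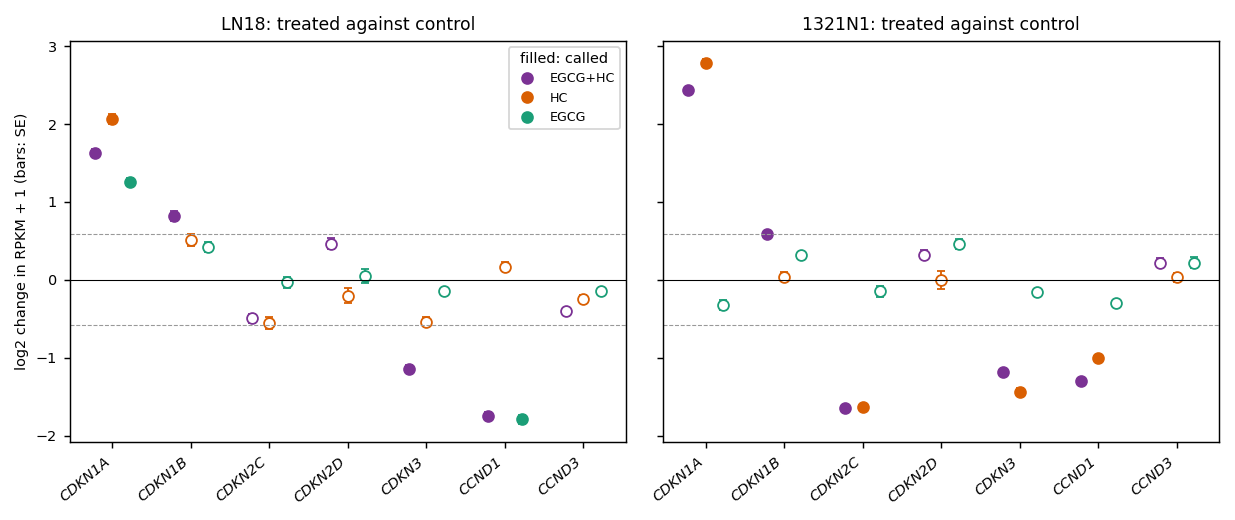
Log2 change in RPKM + 1 against control (points, with SE bars) for the 7 genes tested, in LN18 and 1321N1, by treatment. Filled points passed the adjusted p and fold limits, and dashed lines mark the 1.5-fold limit. CDKN1A was raised by all treatments apart from EGCG in 1321N1, and CCND1 fell with EGCG in LN18 (-1.79) and with HC in 1321N1 (-1.002).

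CDKN1A (chr6:36644237-36655114 in GRCh37, 3 exons), the CIP/KIP inhibitor induced by p53 and by several stress pathways, changed most of the 7 genes tested with HC in both lines and with EGCG+HC in 1321N1, while CCND1 changed more with EGCG and EGCG+HC in LN18. In LN18 its libraries held 28.7, 27.6 and 28.1 RPKM with EGCG+HC, 38.7, 40.2 and 36.3 RPKM with HC, 21.8, 21.3 and 21.4 RPKM with EGCG, and 8.38, 7.87 and 9.04 RPKM in control. In 1321N1 they held 94.3, 94.0 and 93.1 RPKM with EGCG+HC, 120, 125 and 115 RPKM with HC, 12.4, 13.6 and 13.3 RPKM with EGCG, and 17.8, 16.4 and 15.6 RPKM in control. All 4 groups stood apart from each other in both lines, with HC highest in each, while EGCG libraries lay above control in LN18 and below it in 1321N1.

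CDKN1A was 4.18-fold higher with HC in LN18 (log2 change 2.06, SE 0.06, adjusted p = 3.15e-06) and 6.88-fold higher in 1321N1 (2.78, SE 0.05, adjusted p = 3.38e-08). EGCG raised it 2.39-fold in LN18 (1.26, SE 0.05, adjusted p = 2.17e-06), whereas the change in 1321N1 was -0.32 (SE 0.06, adjusted p = 0.00791), under the fold limit. Without EGCG replicates 2 and 3 of 1321N1 it was -0.40 (adjusted p = 0.04), with 1 library left that was assumed to vary like the others. With EGCG+HC it was 3.09-fold higher in LN18 (1.63, SE 0.05, adjusted p = 1.52e-07) and 5.39-fold higher in 1321N1 (2.43, SE 0.05, adjusted p = 4.73e-08). The combination thus stood below HC alone, by -0.44 in LN18 and -0.35 in 1321N1 on the log2 scale, with no overlap of libraries and neither past the fold limit.

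On the log2 scale, the change of CDKN1A with EGCG+HC in LN18 was less than the sum of the single changes (log2 difference -1.69, SE 0.07, adjusted p = 2.44e-09). In 1321N1 the same difference was -0.03 (SE 0.07, 95% interval -0.18 to 0.12). Such departures from the sum were called in 2 of 7 genes in LN18 (37.6% of all genes) and in none in 1321N1 (23.1%). In 1321N1, 2 of the 7 genes had an adjusted p of at most 0.05 by limma, as had 8386 of all 13727 genes. The other call in LN18 was CDKN2D (0.62, SE 0.13, adjusted p = 0.00115), which ended without any 1 of 4 LN18 libraries (control replicate 1 or 3, EGCG replicate 1, HC replicate 1), at 0.53 to 0.58.

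CDKN1B (chr12:12838432-12875303, 3 exons), the CIP/KIP inhibitor that holds cyclin E-CDK2 in check in quiescent cells, was called higher with EGCG+HC in both lines. In LN18 EGCG+HC it was at 16.7, 15.9 and 16.2 RPKM, against 9.39, 7.83 and 9.31 RPKM in LN18 control (log2 change 0.82, SE 0.07, adjusted p = 1.68e-05). In 1321N1 EGCG+HC it was at 14.1, 13.3 and 13.2 RPKM, against 8.56, 8.40 and 8.97 RPKM in 1321N1 control (0.59, SE 0.04, adjusted p = 1.11e-05). The 1321N1 change was 1.504-fold, at the limit, and the call ended without control replicate 1 or 2 or EGCG+HC replicate 1, at 0.56 to 0.58. EGCG+HC libraries lay above those of every other group of their line. With single agents all libraries also lay above control in LN18 HC (0.51, adjusted p = 0.00122), LN18 EGCG (0.42, adjusted p = 0.00108) and 1321N1 EGCG (0.32, adjusted p = 0.00285), under the fold limit, while 1321N1 HC (0.04, adjusted p = 0.494) overlapped control. No difference between EGCG+HC and a single agent reached the fold limit, the values being 0.30 against HC and 0.39 against EGCG in LN18, and 0.55 against HC and 0.27 against EGCG in 1321N1.

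CDKN1C (chr11:2904443-2907005, 4 exons), an imprinted CIP/KIP inhibitor, was at 0.092 to 0.8 RPKM in all 24 libraries, or about 3 to 37 reads where depth could be estimated. Its highest group was LN18 EGCG, at 0.8, 0.753 and 0.773 RPKM, against 0.403, 0.239 and 0.305 RPKM in LN18 control, with no overlap. In 1321N1, EGCG+HC libraries (0.092 to 0.136 RPKM) overlapped control libraries (0.103 to 0.16 RPKM). At so few reads no test was made.

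CDKN2C (chr1:51426417-51440306, 2 exons), an INK4 inhibitor of CDK4 and CDK6, fell in 1321N1 to about 1 level with HC and with EGCG+HC. Libraries of 1321N1 held 14.1, 15.2 and 14.4 RPKM with EGCG+HC, 14.2, 15.2 and 14.7 RPKM with HC, 39.7, 42.7 and 47.0 RPKM with EGCG, and 50.1, 46.0 and 47.1 RPKM in control. The change was -1.65 (SE 0.05, adjusted p = 1.32e-07) with EGCG+HC and -1.64 (SE 0.05, adjusted p = 1.41e-07) with HC. EGCG+HC and HC libraries overlapped (log2 difference -0.01, 95% interval -0.11 to 0.08). In LN18, libraries held 13.8, 13.1 and 13.3 RPKM with EGCG+HC, 12.8, 13.9 and 11.7 RPKM with HC, 18.3, 20.6 and 17.7 RPKM with EGCG, and 19.2, 17.7 and 21.0 RPKM in control. EGCG+HC and HC libraries lay below all control libraries, but the changes of -0.49 and -0.56 were under the fold limit. After rescaling without mitochondrial genes, the EGCG+HC change in LN18 was -0.593 and was called.

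CDKN2D (chr19:10677136-10679735, 2 exons), the other INK4 inhibitor among the 9 genes, was between 3.60 and 8.36 RPKM in all libraries. It was not called against control in either line. With EGCG+HC it stood at 7.32, 7.42 and 6.95 RPKM in LN18, against 5.33, 4.36 and 5.25 RPKM in control (0.46, SE 0.07, adjusted p = 0.000551). In 1321N1 it was highest with EGCG (7.63 to 8.36 RPKM), above EGCG+HC (7.03 to 7.54 RPKM) and control (5.25 to 6.03 RPKM). In LN18 it was higher with EGCG+HC than with HC alone (0.66, SE 0.08, adjusted p = 0.000132), a call that ended without HC replicate 1, at 0.58. The RPKM ratio of CDKN2C to CDKN2D averaged 2.002 ± 0.0538 in 1321N1 EGCG+HC and 8.52 ± 0.235 in 1321N1 control (SD, n = 3 each).

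CDKN3 (chr14:54863567-54886936, 8 exons), whose RNA is known to peak late in the cell cycle, was lower with EGCG+HC in both lines. LN18 libraries held 9.75, 9.31 and 9.67 RPKM with EGCG+HC, 14.01, 15.8 and 15.6 RPKM with HC, 19.9, 19.4 and 21.0 RPKM with EGCG, and 23.8, 21.7 and 21.7 RPKM in control. In 1321N1 they held 22.5, 23.3 and 22.3 RPKM with EGCG+HC, 18.3, 18.4 and 19.8 RPKM with HC, 48.6, 45.2 and 47.6 RPKM with EGCG, and 51.0, 53.2 and 53.5 RPKM in control. The 4 groups stood apart in each line, with EGCG+HC lowest in LN18 and HC lowest in 1321N1. With EGCG+HC the change was -1.14 in LN18 (SE 0.04, adjusted p = 4.14e-07) and -1.18 in 1321N1 (SE 0.03, adjusted p = 1.65e-07). With HC it was -1.44 in 1321N1 (SE 0.04, adjusted p = 1.84e-07), and -0.54 in LN18 (SE 0.06, adjusted p = 0.000298), under the fold limit.

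Markers of dividing cells were lower where CDKN3 was lower. All 14 of these markers (MKI67, TOP2A, PLK1, CCNB1, CDC20 and 9 others) were called lower with EGCG+HC in LN18, where 22.2% of all genes were, and in 1321N1, where 18.0% were. Their summed level was 265 to 273 RPKM in LN18 EGCG+HC, 623 to 648 RPKM in HC, 809.7 to 821 RPKM in EGCG and 964 to 981 RPKM in control. In 1321N1 it was 448 to 459 RPKM with EGCG+HC, 308 to 312 RPKM with HC, 1003 to 1008 RPKM with EGCG and 1163 to 1213 RPKM in control. The order of the groups was that of CDKN3 in each line. It was not that of CDKN2C, whose libraries overlapped between EGCG+HC and HC in both lines while the marker sums of these groups stood apart. In bulk RNA, fewer dividing cells and less of these RNAs per cell cannot be told apart, and the part of dividing cells in the fall of CDKN3 and CDKN2C was not tested.

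**Figure D3:**
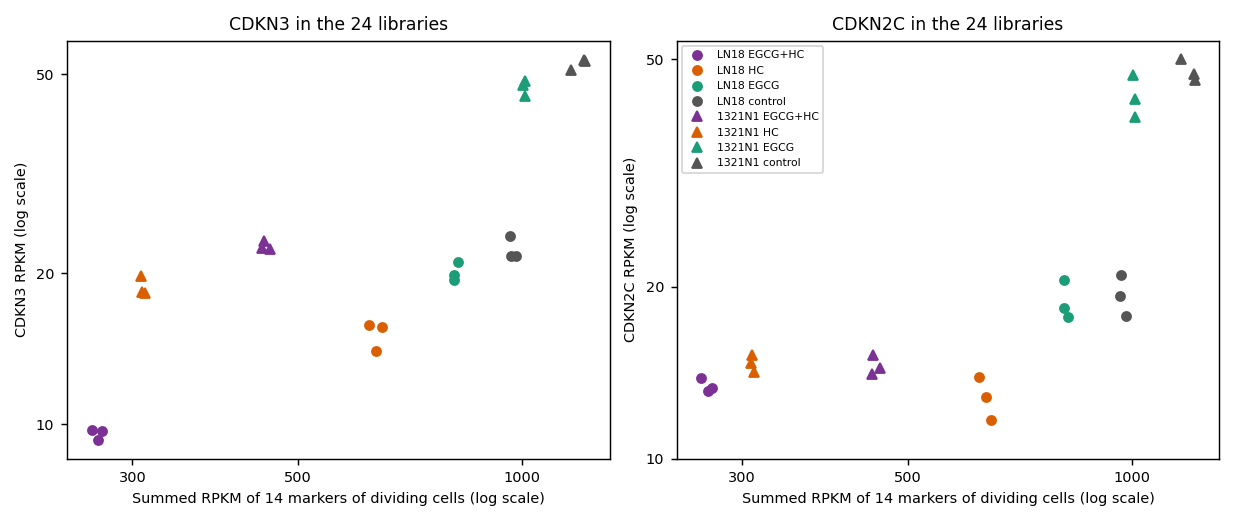
CDKN3 (left) and CDKN2C (right) RPKM against the summed RPKM of 14 markers of dividing cells, both on log axes, 1 point per library (circles LN18, triangles 1321N1, colours treatments). In both panels the treated libraries with the lowest marker sums, LN18 EGCG+HC (265 to 273 RPKM) and 1321N1 HC (308 to 312 RPKM), lie at or near the low end of their line.

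CCND1 (chr11:69455924-69469242, 5 exons), the D-type cyclin induced by growth factor signalling, fell past the fold limit with a different single agent in each line. In LN18 it was at 16.3, 16.5 and 15.8 RPKM with EGCG+HC, 65.1, 61.9 and 65.0 RPKM with HC, 15.7, 16.5 and 15.0 RPKM with EGCG, and 52.1, 59.6 and 58.9 RPKM in control. In 1321N1 it was at 27.2, 27.2 and 27.0 RPKM with EGCG+HC, 35.1, 33.2 and 32.7 RPKM with HC, 54.3, 55.9 and 56.4 RPKM with EGCG, and 68.2, 69.3 and 67.7 RPKM in control. In LN18 the groups with EGCG overlapped each other and lay far below the others, whereas in 1321N1 the 4 groups stood apart, those with HC lowest.

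EGCG lowered CCND1 in LN18 (log2 change -1.79, SE 0.06, adjusted p = 1.58e-06), and so did EGCG+HC (-1.75, SE 0.05, adjusted p = 1.6e-07). Those 2 groups differed by 0.04 (SE 0.04, 95% interval -0.05 to 0.13). HC alone gave 0.17 in LN18 (SE 0.06, adjusted p = 0.042), and EGCG+HC lay below HC (-1.92, SE 0.04, adjusted p = 4.76e-08). In 1321N1, HC lowered CCND1 (-1.002, SE 0.04, adjusted p = 4.51e-07) and EGCG+HC did so by more (-1.30, SE 0.03, adjusted p = 6.57e-08), while EGCG gave -0.30 (SE 0.03, adjusted p = 0.00167), under the fold limit. The combined change in 1321N1 differed from the sum of the single changes by -0.003881 (SE 0.04, 95% interval -0.10 to 0.09).

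CCND3 (chr6:41902672-42018095, 5 exons), which pairs with CDK4 and CDK6 like CCND1, moved little. In LN18 it stood at 15.3 ± 0.366 RPKM with EGCG+HC, 17.2 ± 0.720 RPKM with HC, 18.3 ± 0.131 RPKM with EGCG and 20.4 ± 0.0838 RPKM in control (SD, n = 3 each). No groups overlapped, but the largest change, with EGCG+HC, was -0.40 (SE 0.03, adjusted p = 1.09e-05), under the fold limit. In 1321N1 it was at 7.84 ± 0.176 RPKM with EGCG+HC, 6.76 ± 0.238 RPKM with HC, 7.84 ± 0.576 RPKM with EGCG and 6.60 ± 0.514 RPKM in control.

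CCND2 (chr12:4378937-4414519, 5 exons), the third D-type cyclin, was barely expressed in LN18 and not listed in 1321N1. Its LN18 libraries held 0.397, 0.348 and 0.475 RPKM with EGCG+HC, 0.374, 0.137 and 0.175 RPKM with HC, 0.107, 0.108 and 0.075 RPKM with EGCG, and 0.073, 0.056 and 0.043 RPKM in control. EGCG+HC, HC and EGCG libraries all lay above control, at about 6 to 63 reads per library. A lncRNA on the other strand, CCND2-AS1, overlaps its exons, as does an unnamed lncRNA there. An unnamed protein-coding gene on the same strand overlaps them too. The library kit does not mark strand, so reads from stretches shared by these genes cannot be told apart. The same holds for CDKN1A with the lncRNA DINOL, CCND1 with the protein-coding gene LTO1, and for unnamed lncRNAs at CDKN2C and CCND3, all on the other strand.

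Summed over the listed D-type cyclins, the level was 31.8 ± 0.429 RPKM in LN18 EGCG+HC, 81.4 ± 1.42 RPKM in HC, 34.2 ± 0.669 RPKM in EGCG and 77.4 ± 4.05 RPKM in control (SD, n = 3 each). In 1321N1 it was 34.9 to 35.1 RPKM with EGCG+HC, 40.4 ± 1.49 RPKM with HC, 63.4 ± 1.61 RPKM with EGCG and 75.0 ± 0.991 RPKM in control. The mix shifted too, since CCND1 made up 50.8% of the sum in LN18 EGCG+HC, 46.0% in EGCG and 73.5% in control. In LN18 EGCG, CCND3 (18.2 to 18.5 RPKM) lay above CCND1 (15.0 to 16.5 RPKM) in all libraries. In 1321N1 CCND1 kept 77.6% of the sum in EGCG+HC, against 91.2% in control.

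The ratio of CDKN1A to CCND1 RPKM put both movements together. It was 1.74 ± 0.0567 in LN18 EGCG+HC, 0.601 ± 0.0456 in HC, 1.37 ± 0.0656 in EGCG and 0.149 ± 0.0150 in control (SD, n = 3 each). In 1321N1 it was 3.45 ± 0.00856 with EGCG+HC, 3.56 ± 0.173 with HC, 0.235 ± 0.00776 with EGCG and 0.243 ± 0.0158 in control. EGCG+HC gave the highest ratio in LN18, while in 1321N1 its libraries lay within the range of HC libraries and EGCG libraries overlapped control.

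**Figure D4:**
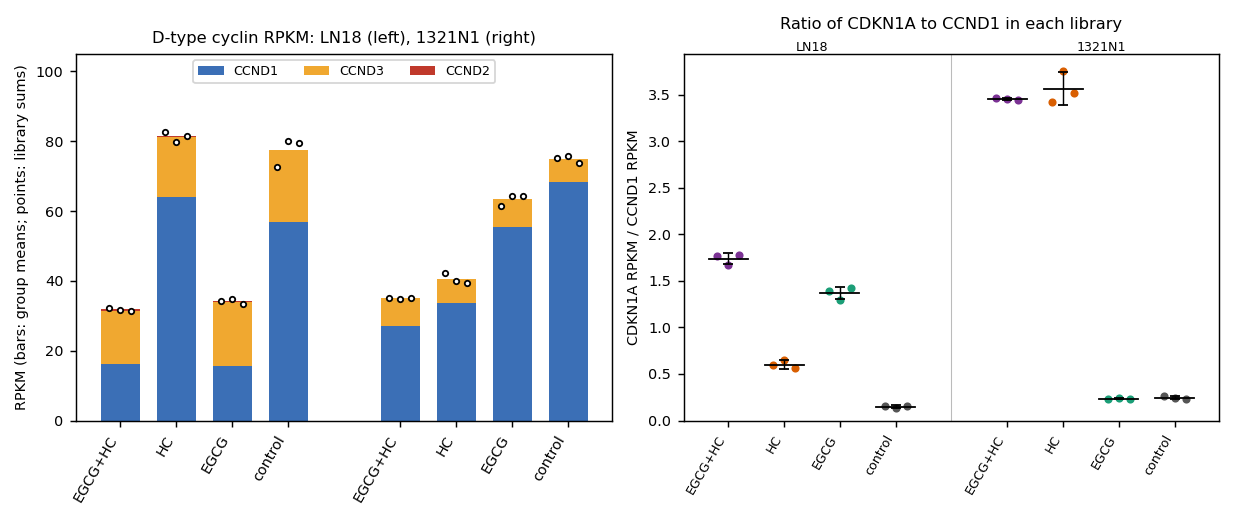
Left, group mean RPKM of the D-type cyclins, stacked, with the sum in each library as points, for LN18 (left bars) and 1321N1 (right bars). Right, ratio of CDKN1A to CCND1 RPKM in each library with mean and SD. The cyclin sum in LN18 was near 32 to 34 RPKM in the groups with EGCG, and the ratio was highest in 1321N1 with EGCG+HC (3.45) and HC (3.56).

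Between the combination and each single agent, EGCG+HC differed from HC in 3 of 7 genes in LN18 (45.4% of all genes) and in none in 1321N1 (19.4%). In 1321N1, 6 of 7 had an adjusted p of at most 0.05 by limma, as had 9755 of all 13864 genes. From EGCG, EGCG+HC differed in 1 of 7 in LN18 (37.0%) and 4 of 7 in 1321N1 (39.6%). The LN18 differences from HC were CCND1 (-1.92), CDKN2D (0.66) and CDKN3 (-0.61, SE 0.05, adjusted p = 2.08e-05), the last lost without HC replicate 2 or 3, at -0.58. The LN18 difference from EGCG was CDKN3 (-0.9976, SE 0.04, adjusted p = 4.4e-07). In 1321N1, EGCG+HC differed from EGCG in CDKN1A (2.75), CDKN2C (-1.50), CDKN3 (-1.02) and CCND1 (-1.01). For the 7 genes tested, in RPKM + 1, EGCG+HC stayed within 1.5-fold of HC in 1321N1, and in LN18 within 1.5-fold of EGCG apart from CDKN3. With a pseudocount of 0.1, CDKN1B in 1321N1 passed that limit against HC (0.590). CDKN1C and CCND2 were not tested.

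Whether the 2 lines responded differently was tested as the change in LN18 minus the change in 1321N1. For EGCG, given at the same dose, 2 of 7 genes differed (17.0% of all genes), CDKN1A by 1.58 (SE 0.08, adjusted p = 1.68e-07) and CCND1 by -1.49 (SE 0.07, adjusted p = 1.11e-07). Without 1321N1 EGCG replicates 2 and 3 these were 1.65 and -1.46, and both were still called. For HC, 4 of 7 differed (32.2%), CDKN1A by -0.72, CDKN2C by 1.08, CDKN3 by 0.90 and CCND1 by 1.17. For EGCG+HC, 3 of 7 differed (33.2%), CDKN1A by -0.80, CDKN2C by 1.16 and CCND3 by -0.62, while CDKN3 differed by 0.03 (95% interval -0.09 to 0.15). The CCND3 difference fell under the fold limit without 1321N1 control replicate 3, at -0.58.

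**Figure D5:**
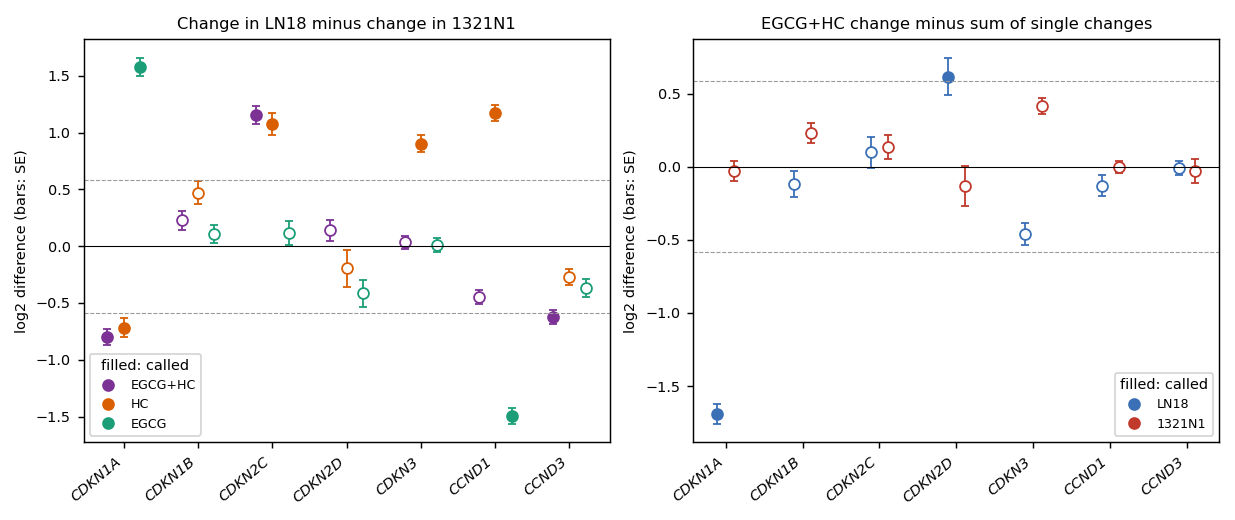
Left, log2 change in LN18 minus log2 change in 1321N1 for each treatment. Right, EGCG+HC change minus the sum of the EGCG and HC changes in each line, with SE bars, filled points for calls and dashed lines at 1.5-fold. The EGCG response differed for CDKN1A (1.58) and CCND1 (-1.49), and CDKN1A departed from the sum by -1.69 in LN18.

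CDKs, cyclins and other genes that act on CDKs, here the CDK engine, were called lower more often than higher with EGCG+HC. Of 17 genes of the CDK engine tested, 2 were called higher and 7 lower in LN18 (median log2 change -0.49, against 0.01 over all genes), where 24.1% of all genes were called higher and 22.2% lower. In 1321N1, 2 were called higher and 11 lower (-0.62, against -0.01), where 23.1% of all genes were called higher and 18.0% lower. In LN18 the mitotic phosphatase gene CDC25B (-2.80) and the mitotic cyclins CCNB1 (-2.005), also among the markers of dividing cells, and CCNB2 (-1.65) fell, with CDC25C (-1.37). In 1321N1 CDC25B (-1.95), CCNB1 (-1.84) and CCNA2 (-1.73) fell, as did CDK6 (-0.59), CDK4 (-0.61) and CDK2 (-0.98), kinases of G1 and S phase that were named after their values were seen. In LN18, CDK6 was also called lower (-0.77, adjusted p = 6.32e-05), while CDK4 (-0.50) and CDK2 (-0.48) did not reach the fold limit. The genes called higher were CDC25A (1.34), a phosphatase of the G1/S step, and WEE1 (0.81), a mitotic inhibitor kinase, in LN18, and CDK7 (1.55), a CDK-activating kinase, and CDC25A (0.61) in 1321N1.

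Retinoblastoma and E2F family genes moved both ways. Of 12 tested in LN18, 4 passed as higher and 5 as lower (median -0.09), beside 24.1% and 22.2% of all genes, with E2F2 higher (1.35) and E2F4 (-1.23), RBL2 (-1.22) and TFDP1 (-0.9997) lower. In 1321N1, 4 of 13 were higher and 4 lower (median -0.22), beside 23.1% and 18.0% of all genes, with LIN54 (1.30), which binds CHR elements, and E2F6 (1.24), a repressor, higher and TFDP1 (-1.01) and E2F2 (-0.93) lower. E2F2, an activating E2F, thus went opposite ways in the 2 lines.

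Genes for turnover of inhibitors and cyclins by ubiquitin ligases were called in part. In LN18, 1 of 16 was higher, FBXW7 (0.93), the receptor for cyclin E, and 7 were lower (median -0.39), beside 24.1% and 22.2% of all genes. Among the lower genes were CUL4B (-1.22), CUL4A (-1.002) and DDB1 (-0.99), parts of a ligase for p21, and CDC20 (-2.55), which activates the mitotic ligase and is also among the markers of dividing cells. In 1321N1, 3 of 17 were higher and 3 lower (median -0.16), shares near or under the 23.1% and 18.0% of all genes. Lower were CDC20 (-1.64), SKP2 (-1.47), the receptor that targets p27, and UBAC1 (-1.03), part of another ligase for p27, and higher were FBXW7 (0.97), DTL (0.85), the receptor that targets p21, and FBXO4 (0.75), a receptor for cyclin D1. SKP2 in LN18 was at -0.58 (SE 0.04), just inside the fold limit of 0.585.

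Transcription factors known to act on these genes rose more often than they fell. Of 27 tested in LN18, 12 passed as higher and 2 as lower (median 0.47), where 24.1% of all genes were called higher and 22.2% lower. DDIT3 (3.36), ATF3 (3.004) and FOS (1.65) rose, the first pair being stress-response factors, and SMAD3 (-1.68) and STAT3 (-1.17), which carry cytokine signals, fell. In 1321N1, 11 of 27 were higher and 4 lower (median 0.48), where 23.1% were called higher and 18.0% lower. ATF3 (5.10), DDIT3 (3.99), FOS (3.71) and EGR1 (2.77) rose, the last pair being immediate early factors. FOS averaged 0.203 RPKM in 1321N1 control and 0.514 RPKM in LN18 control, so it passed the filter on low values through treated libraries.

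Other p53 target genes were called in both directions. Of 20 tested in LN18, 7 passed as higher and 3 as lower (median 0.23), beside 24.1% and 22.2% of all genes, led by the stress sensor SESN2 (2.90), the cytokine GDF15 (2.56), the growth arrest gene GADD45A (2.51) and the phosphatase PPM1D (1.15), while TP53I3 (-1.15), BAX (-0.72) and FDXR (-0.64) fell. In 1321N1, 10 of 21 were higher and 4 lower (median 0.38), beside 23.1% and 18.0% of all genes, led by GDF15 (3.57), GADD45A (3.47), SESN2 (3.34) and PPM1D (1.38). GDF15 averaged 0.322 RPKM in 1321N1 control, so it passed the filter on low values there through the treated libraries. GADD45A stood at 118.5 RPKM in LN18 EGCG+HC, against 19.98 RPKM in LN18 control, and at 279.9 RPKM in 1321N1 EGCG+HC, against 24.3 RPKM in 1321N1 control.

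Over the 24 libraries, expressed as log2(RPKM + 1) minus the mean of the line's controls, the genes whose pattern was most like each member were found among 12160 genes. The pattern of CDKN1A was most like those of YPEL5 (Pearson r = 0.986), GDF15 (0.976) and PRNP (0.968). CDKN3 was most like the mitotic genes KIF20A (0.991), CCNB1 (0.987) and PLK1 (0.982), and CDKN2C most like CENPB (0.992), GPRIN1 (0.989) and TMSB4X (0.985). CCND1 was most like SLC25A37 (0.989), WDR27 (0.983) and CUL9 (0.982), and CCND3 most like SSFA2 (0.936), PRMT5 (0.925) and FASTKD2 (0.915). CDKN1B was most like CKS1B_1 (0.947), STARD3NL (0.935) and TRUB1 (0.929), and CDKN2D had the lowest such values, with SNHG6 (0.874), RPL10 (0.867) and TRAM2-AS1 (0.863). Among the members themselves, CDKN2C and CDKN3 moved together most (r = 0.884) and CDKN1A moved against CDKN3 most (r = -0.862). These correlations describe 8 groups in 24 libraries, with controls shared within a line, and carry no p-value. All genes of a library also share its depth.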

How the data were processed

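The authors sequenced total RNA (TruSeq RNA v2, paired-end, HiSeq 2500), mapped reads to GRCh37/hg19 and deposited RPKM values per gene, 1 sheet per group, made in CLC Genomics Workbench per the study's methods. FastQC is named in the submitters' processing notes. For the annotation and the counting rules, the sources used here give nothing. Sheets list different numbers of genes, so a gene that is not listed is not a 0.

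From the RPKM, log2(RPKM + 1) was computed and fitted by limma 3.58.1 (trend) in R 4.3.3, in genes listed in all groups compared with a mean of at least 1 RPKM. Fold changes on this scale understate the changes of low genes. P-values were Benjamini-Hochberg adjusted over all genes of each of 16 comparisons, and a call needed an adjusted p of at most 0.05 and at least 1.5-fold. P-values measure the spread between 3 libraries per group. Python 3.11.15, numpy 2.4.6, pandas 2.3.3 and matplotlib 3.10.9 were used for the rest. The fit was tested on simulated data. Depth was estimated from low values of single-exon genes taken as whole reads within 0.1.

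The members and lists were chosen with earlier results of these data known. The text names the 9 members, up to 4 called genes of largest change per list with EGCG+HC in each line, all genes of a list where 3 or fewer were called in a direction, and the 3 genes most like each member. Outside that rule it names CDK6, CDK4 and CDK2, after their values were seen, and SKP2 in LN18. Gene positions are from GENCODE (GRCh37) and promoters from RefSeq (GRCh38.p14). A comparison of the proteins was planned but not made. Alternatives were another pseudocount, no filter, quantile normalization, rescaling without mitochondrial genes, a fit on all 24 libraries, the replicate number as a block, calls by adjusted p alone and leaving out each library.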

Additional observations from a re-analysis of the deposited data

Results flagged for a closer look

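Changes that differed between LN18 and 1321N1 by a test of the difference itself were singled out. For EGCG, at 50 µg/ml in both lines, these were CDKN1A (LN18 change minus 1321N1 change 1.58, adjusted p = 1.68e-07 by limma) and CCND1 (-1.494, adjusted p = 1.11e-07). For HC they were CDKN1A (-0.718, adjusted p = 1.63e-05), CDKN2C (1.076, adjusted p = 1.7e-06), CDKN3 (0.9006, adjusted p = 1.08e-06) and CCND1 (1.17, adjusted p = 7.4e-08). For EGCG+HC they were CDKN1A (-0.8029, adjusted p = 1.48e-06), CDKN2C (1.155, adjusted p = 2.04e-07) and CCND3 (-0.62, adjusted p = 4.67e-06). For the groups with HC, given at 10 µg/ml in LN18 and 20 µg/ml in 1321N1, cell line and dose cannot be told apart. The lines were also cultured with different shares of serum, lower for LN18, which cannot be told apart from the cell line for any treatment.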

How the results depend on the processing

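Calls by adjusted p alone raised the number of members called, and also the number of all genes called. Against control they gave 7 (against 4) for LN18 EGCG+HC, where 11602 of all 13807 genes passed. They gave 6 (1) for LN18 HC (7420 of 13392), 5 (2) for LN18 EGCG (9378 of 13157) and 6 (0) for 1321N1 EGCG (5315 of 13255). For EGCG+HC in LN18 such calls gave 6 (1) against EGCG (11335 of all 13770 genes) and 6 (3) against HC (11546 of 14165). In 1321N1 they gave 6 (0) against HC (9755 of 13864) and 2 (0) for the departure from the sum (8386 of 13727). Between the lines they gave 4 (2) for the EGCG response (7301 of 13444) and 5 (3) for the EGCG+HC response (9902 of 13989). Nothing particular to the members is read from these counts. Over all genes such calls were 5315 to 11602 per comparison, against 659 to 6430. A pseudocount of 0.1 gave 1 member for 1321N1 EGCG+HC against HC and 2 for LN18 HC, quantile normalization 3 for LN18 HC, and rescaling without mitochondrial genes 1 (2) for the LN18 departure from the sum. In the main fits, 19.4% of all genes were called for 1321N1 EGCG+HC against HC. The shares were 11.7% for LN18 HC and 37.6% for the LN18 departure from the sum. With the pseudocount of 0.1, 1084 genes were called for 1321N1 EGCG, against 659. Quantile normalization moved the share of calls that were lower to 53.3% (36.9%) for 1321N1 EGCG, 37.5% (19.2%) for LN18 HC and 54.6% (67.1%) for the EGCG response, and the median of all genes by -0.13 for LN18 HC and 0.10 for the LN18 departure from the sum. Rescaling moved that median by -0.11 for LN18 EGCG+HC against HC.

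Calls lost were CDKN1B in 1321N1 EGCG+HC under quantile normalization (0.55) and rescaling (0.52), CDKN3 in LN18 EGCG+HC against HC (quantile, -0.47), CDKN2D in the same comparison (rescaled, 0.56) and beyond the sum in LN18 (rescaled, 0.55), and CCND3 in the EGCG+HC response (quantile, -0.56). Rescaling also gained the call of CDKN2C in LN18 EGCG+HC against control (-0.593). The causes were not tested. No reversed value had been called. Under the pseudocount of 0.1 the CDKN3 EGCG+HC response was -0.00709. Under quantile normalization, departures from the sum were 0.08294 (CCND3) and 0.01548 (CDKN1A) in 1321N1 and 0.09239 (CCND3) and 0.005285 (CDKN1B) in LN18, the CDKN1B difference between controls was -0.005145 and the CDKN3 EGCG response -0.001326. Rescaled, departures in 1321N1 were 0.04119 (CCND1), 0.007548 (CCND3) and 0.01661 (CDKN1A), and CCND1 in LN18 EGCG+HC against EGCG was -0.01566. CCND3 was -0.0352 in 1321N1 EGCG+HC against EGCG and -0.04005 with HC, and CDKN1B was -0.03271 with HC and -0.01971 between controls. CDKN2C in EGCG+HC against HC was 0.002927 in 1321N1 and -0.0503 in LN18, and the CDKN3 EGCG response was -0.008978. Without both 1321N1 EGCG libraries that list more genes at 0, chosen after seeing the data, departures in 1321N1 were 0.0451 (CDKN1A), 0.02717 (CCND1) and 0.07449 (CCND3), and the CDKN3 EGCG response was -0.03505.

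Leaving out 1 library gave 1 to 2 members for the LN18 departure from the sum and for LN18 HC. Over all genes it gave 5058 to 5236 calls for that departure and 1538 to 1657 for LN18 HC. Changes that crossed 0 this way ranged as follows. For 1321N1 HC against control, CDKN2D from -0.10 to 0.13 and CCND3 from -0.009505 to 0.08585. For 1321N1 EGCG+HC against EGCG, CCND3 from -0.05147 to 0.0406. For 1321N1 EGCG+HC against HC, CDKN2C from -0.04221 to 0.01027. For LN18 EGCG against control, CDKN2D from -0.02795 to 0.11 and CDKN2C from -0.09183 to 0.02644. For the departure from the sum in 1321N1, CDKN1A from -0.07497 to 0.01187, CCND1 from -0.02368 to 0.02524 and CCND3 from -0.08477 to 0.01112. For the departure from the sum in LN18, CCND3 from -0.04061 to 0.01629. For LN18 control against 1321N1 control, CDKN1B from -0.01556 to 0.10. For the EGCG response between lines, CDKN3 from -0.02247 to 0.05152. Replicate numbers did not pair the samples (33 same-number correlations from -0.108 to 0.154, 9 of them the best), and the replicate block gave 4 members for LN18 EGCG+HC and 5 for 1321N1 EGCG+HC, changing no member count. Reads limit CDKN1C (about 3 to 37) and CCND2 (about 6 to 63), where differences were not tested.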
